A study of Mus musculus with 6 samples.

Results

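The superoxide and peroxide scavenging enzymes are 10 genes chosen by name: Sod1, Sod2, Sod3, Cat, Gpx1, Gpx3, Gpx4, Prdx1, Prdx6 and Gsr. Every probe set annotated to one of them was taken from 6 one-colour Affymetrix arrays of heart RNA, which gave 24 of the 45037 probe sets without controls. Of the 10 genes, 8 had a probe set of their own, out of 18193 such genes on the array. The 5 probe sets annotated to Prdx1 are also annotated to the pseudogene Gm21399, so they are shown but counted for neither gene, and Prdx6 was not analysed here. Each gene is led by its brightest probe set, and its others are shown beside it.

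A group of 3 arrays came from TNFαDes-/- hearts, which lack desmin and overexpress the cytokine TNF-α in the heart, on a mixed 129SV/C57 background. The other 3 came from Des-/- hearts, which lack desmin only, of strain 129SV. All mice were 3 months old, and the deletion of Des, which encodes the intermediate filament protein of muscle, is shared by both groups. The transgene therefore cannot be told apart from strain. Wild-type hearts are not analysed here, and the sources used here do not give the promoter that drives TNF-α. The labels speak of pooled RNA from 3 hearts per genotype. If the 3 arrays of a group repeat 1 pool, each p-value below reflects array-to-array spread, which may be technical, and not the spread between mice. In whole heart, fewer cells of a type and less RNA per cell cannot be told apart.

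Superoxide, which leaks from the respiratory chain and is made by NADPH oxidases and other enzymes, is converted to hydrogen peroxide by the superoxide dismutases: Sod1 in the cytosol, Sod2 in the mitochondrial matrix and Sod3 outside the cell. Hydrogen peroxide is then removed by catalase in the peroxisome, by the selenium-containing glutathione peroxidases and by the peroxiredoxins. The glutathione peroxidases oxidise glutathione, and glutathione reductase, encoded by Gsr, reduces it again at the expense of NADPH.

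Of the 8 genes with a probe set of their own, 6 were higher in TNFαDes-/- hearts and 0 were lower (limma, adjusted p under 0.05 over all genes; 0 were lower at an unadjusted p under 0.05). Across all genes 21.3% were called, 15.2% higher and 6.05% lower, and of the 3639 brightest genes, which hold 7 of the 8, 31.2% were called higher. The 6 were Sod1, Cat, Gpx1, Gpx3, Gpx4 and Gsr. The mitochondrial Sod2 and the extracellular Sod3 did not pass. The median log2 change of the 8 was 0.56, against 0.04 over all genes and 0.27 over the 3639 brightest. In 7 of the 8 every TNFαDes-/- array lay above every Des-/- array, as in 24.3% of all genes and 42.2% of the 3639 brightest. Counting both directions, the groups were fully separated in 38.0% of all genes. Only Sod2 overlapped.

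The Des-/- arrays did not share 1 distribution, and this touches each value below. The 99th percentile of the log2 signal was 12.26 to 12.31 on the TNFαDes-/- arrays, and 12.27 on Des-/- replicate 1 but 11.75 and 11.69 on Des-/- replicates 2 and 3. When the arrays were quantile normalized, so that all 6 had the same distribution, 3 of the 8 genes were called higher (Cat, Gpx3 and Gpx4) and 1 lower (Sod2), where 12.0% of all genes were called higher and 10.4% lower, and the median of the 8 was 0.31. Without Des-/- replicate 1, 7 of the 8 were called higher, where 23.5% of all genes were. Without Des-/- replicates 2 and 3 together, 2 were (Sod1 and Gpx4). That fit holds a single Des-/- array, which is assumed to vary like the TNFαDes-/- arrays. Its p-values below therefore leave out the spread between Des-/- arrays.

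**Figure D1:**
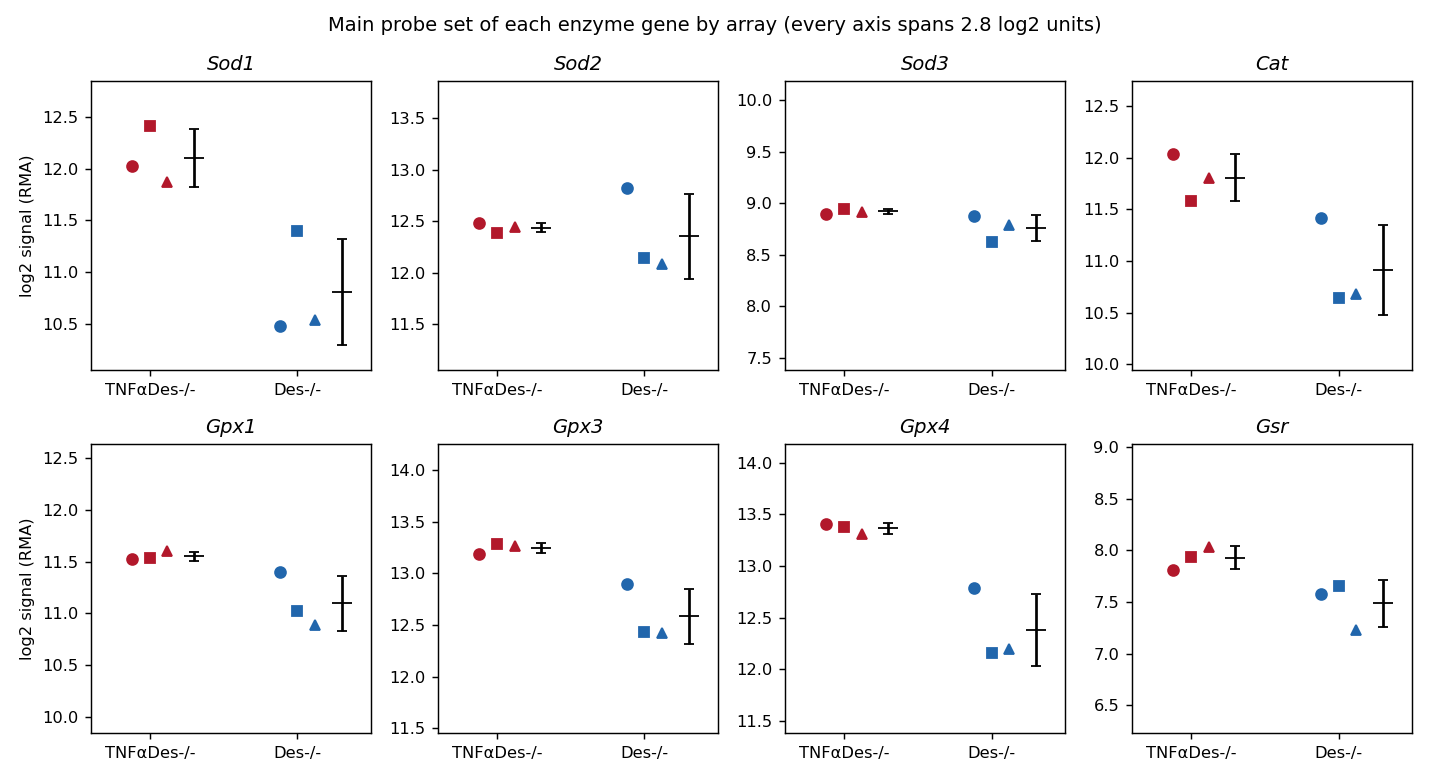
Deposited log2 signal of the main probe set of each gene on the 3 TNFαDes-/- arrays (left in each panel) and the 3 Des-/- arrays (right). Circle, square and triangle are replicates 1, 2 and 3, the bars beside them are the mean and SD, and every vertical axis spans the same number of log2 units. Des-/- replicate 1 is the highest of its group for Sod2, Sod3, Cat, Gpx1, Gpx3 and Gpx4, and the lowest for Sod1.

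Sod1 encodes the copper-zinc superoxide dismutase of the cytosol. It had the largest change of the 8 as deposited. Without Des-/- replicate 1 it lay at 1.14, level with Cat and below Gpx4 at 1.19 and Gsr at 1.30 (second probe set). Its main probe set, 1451124_at, read 12.03, 12.42 and 11.88 on the TNFαDes-/- arrays, against 10.48, 11.40 and 10.54 on the Des-/- arrays (log2 signal). The groups did not overlap, but Des-/- replicate 2 stood 0.86 above the nearest other array of its group. The mean was 12.11 ± 0.28 in TNFαDes-/- and 10.81 ± 0.51 in Des-/- hearts (SD, n = 3 each), a log2 change of 1.30 ± 0.25 (SE; limma adjusted p = 0.0071), which is 2.47-fold. Under quantile normalization Des-/- replicate 2 moved to 11.74, inside the TNFαDes-/- range of 11.69 to 12.25, and the change of 0.93 no longer passed (limma adjusted p = 0.0686). Leaving out each array in turn kept the call, at 1.14 to 1.60.

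The other 4 probe sets of Sod1 did not all move together. The probe set 1459976_s_at followed the main one, with 11.35, 11.29 and 11.16 in TNFαDes-/- against 10.04, 10.79 and 10.28 in Des-/- hearts. Its change was 0.90 ± 0.18 (SE; limma adjusted p = 0.0135 over all probe sets). A dimmer one, 1435304_at, read 6.25, 6.24 and 6.25 in TNFαDes-/- against 5.98, 5.73 and 5.60 in Des-/- hearts, a change of 0.48 ± 0.12 (limma adjusted p = 0.0286). After quantile normalization 1459976_s_at did not pass (0.53, adjusted p = 0.218) and 1435304_at did (0.47, adjusted p = 0.0196), though this one lost its call when any 1 array but Des-/- replicate 1 was left out (adjusted p up to 0.11). Both remaining probe sets had overlapping groups and changes of -0.06 and -0.02, and one of them, 1447761_x_at, lay below the median of every array, so signal above background is not shown for it.

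Sod2 encodes the manganese superoxide dismutase of mitochondria. Its main probe set read 12.48, 12.39 and 12.44 on the TNFαDes-/- arrays, against 12.83, 12.14 and 12.09 on the Des-/- arrays. The TNFαDes-/- values fell between Des-/- replicate 1 and its other 2 arrays. The change was 0.08 ± 0.18 (SE; limma adjusted p = 0.795), but its sign and its call changed with the scaling and with 1 array. It was 0.32 without Des-/- replicate 1 (limma adjusted p = 0.0263) and -0.30 after quantile normalization (limma adjusted p = 0.0368), with values of 12.28, 12.21 and 12.25 in TNFαDes-/- against 12.65, 12.49 and 12.49 in Des-/- hearts, which no longer overlapped. No direction is therefore given for Sod2. Its probe set 1454976_at was the 1 member probe set whose TNFαDes-/- values (8.66, 8.35 and 8.70) all lay below those of Des-/- hearts (9.37, 8.94 and 8.81), a change of -0.47 ± 0.17 that did not pass as deposited (limma adjusted p = 0.0993) and passed after quantile normalization (-0.65, limma adjusted p = 0.00412). The other 2 probe sets of Sod2 gave 0.05 and -0.10 as deposited, and the first of them, 1448610_a_at, gave -0.32 after quantile normalization (limma adjusted p = 0.0461 over all probe sets).

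Sod3, the secreted dismutase bound to the matrix, read 8.90, 8.94 and 8.92 in TNFαDes-/- hearts, against 8.87, 8.62 and 8.79 in Des-/- hearts. The lowest TNFαDes-/- array lay 0.02 above the highest Des-/- array. The change of 0.16 ± 0.10 (SE) did not pass (limma adjusted p = 0.318), was -0.03 after quantile normalization, and was 0.09 on the second probe set.

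The promoters of a pair of called genes, of Sod2 and of Prdx1 are printed because the genes regulated by the oxidant-sensing factor NRF2 carry an antioxidant response element, and peroxiredoxin 1 is among its known targets. The table matched 7 of the 10 members with 10 windows. These run from 250 bases before to 50 bases after the start, come from RefSeq (mouse build GRCm38.p6) and are written 5′ to 3′. Capitals mark the core of the element, searched as TGACNNNGC on both strands, the only motif searched.
Sod1 promoter, chr16:90220512-90220811, plus strand: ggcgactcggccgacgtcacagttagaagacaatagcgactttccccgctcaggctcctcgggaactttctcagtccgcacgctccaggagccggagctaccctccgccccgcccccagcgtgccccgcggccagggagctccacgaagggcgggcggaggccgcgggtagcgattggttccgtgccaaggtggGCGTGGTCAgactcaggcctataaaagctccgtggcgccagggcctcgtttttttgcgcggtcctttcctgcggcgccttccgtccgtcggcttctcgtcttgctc
Sod2 promoter, chr17:13007589-13007888, plus strand: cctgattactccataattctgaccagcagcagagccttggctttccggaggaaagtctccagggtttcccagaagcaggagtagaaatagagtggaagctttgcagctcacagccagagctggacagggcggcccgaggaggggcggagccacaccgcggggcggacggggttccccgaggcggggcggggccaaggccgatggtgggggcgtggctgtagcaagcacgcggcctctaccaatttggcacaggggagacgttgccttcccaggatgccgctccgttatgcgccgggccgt
Cat promoter, chr2:103485104-103485403, minus strand: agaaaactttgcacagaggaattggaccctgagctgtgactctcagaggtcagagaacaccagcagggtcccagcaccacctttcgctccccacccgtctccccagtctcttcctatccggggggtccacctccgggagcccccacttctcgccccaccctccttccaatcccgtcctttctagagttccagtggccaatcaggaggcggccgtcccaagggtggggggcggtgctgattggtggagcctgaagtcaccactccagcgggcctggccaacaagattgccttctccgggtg
Prdx1 promoter, chr4:116685349-116685648, plus strand: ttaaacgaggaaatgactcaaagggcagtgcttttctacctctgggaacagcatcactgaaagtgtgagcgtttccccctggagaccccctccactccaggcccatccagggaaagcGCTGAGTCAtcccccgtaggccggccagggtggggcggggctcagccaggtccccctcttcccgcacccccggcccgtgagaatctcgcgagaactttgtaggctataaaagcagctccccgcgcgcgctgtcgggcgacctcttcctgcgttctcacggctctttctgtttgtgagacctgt
The core was found once in the Sod1 window, on the minus strand with its first base 56 bases before the start, and once in the Prdx1 window, on the minus strand 133 bases before the start. It was not found in the single windows of Sod2, Cat, Gpx1 and Gpx3 or in the 4 windows of Gpx4. Of all 32851 promoter windows of this length 12.4% hold the core, so its presence in 2 of 10 windows is a description of the letters and not of binding.

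Cat, which encodes catalase, rose on both of its probe sets. The main one read 12.04, 11.58 and 11.80 on the TNFαDes-/- arrays, against 11.42, 10.65 and 10.68 on the Des-/- arrays. The groups did not overlap, and Des-/- replicate 1 came within 0.16 of the lowest TNFαDes-/- array. The log2 change was 0.89 ± 0.21 (SE; limma adjusted p = 0.0189), or 1.86-fold, and the second probe set gave 0.93 ± 0.20 (limma adjusted p = 0.0177 over all probe sets). After quantile normalization the change was 0.53 (limma adjusted p = 0.016). The call ended when any 1 of TNFαDes-/- replicates 1 and 3 and Des-/- replicates 2 and 3 was left out, with adjusted p up to 0.0847, and against Des-/- replicate 1 alone the change was 0.39 (adjusted p = 0.285, with a single Des-/- array).

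Gpx4, the peroxidase that reduces lipid hydroperoxides in membranes, had the most stable call of the 8 in the fit over genes. It read 13.41, 13.37 and 13.31 on the TNFαDes-/- arrays, against 12.78, 12.16 and 12.19 on the Des-/- arrays. The 3 TNFαDes-/- values lay within 0.10 of each other and 0.53 above the highest Des-/- array. Its mean was 13.36 ± 0.05 in TNFαDes-/- and 12.38 ± 0.35 in Des-/- hearts (SD, n = 3 each), a log2 change of 0.98 ± 0.16 (SE; limma adjusted p = 0.00412), or 1.98-fold. In that fit it passed under all 18 alternatives that gave it a value, at 0.56 to 1.19, and was 0.62 after quantile normalization. In the fit over all probe sets it passed 15 of 16 and missed without Des-/- replicates 2 and 3 (adjusted p = 0.0547), where 1 Des-/- array is left. Its second probe set, 1456193_x_at, had smaller changes, 0.70 ± 0.12 as deposited (limma adjusted p = 0.00727 over all probe sets) and 0.32 after quantile normalization, where it did not pass (limma adjusted p = 0.0642).

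Gpx3, the secreted glutathione peroxidase of plasma, read 13.19, 13.29 and 13.26 in TNFαDes-/- hearts, against 12.89, 12.43 and 12.42 in Des-/- hearts. The groups did not overlap, and the log2 change on its single probe set was 0.66 ± 0.14 (SE; limma adjusted p = 0.011), or 1.58-fold. It was 0.31 after quantile normalization (limma adjusted p = 0.0306), and the call ended without TNFαDes-/- replicate 3 (0.65, adjusted p = 0.0506) and with cyclic loess scaling (0.24, adjusted p = 0.0932). In the fit over all probe sets Gpx3 passed 8 of 16 alternatives. There its call ended when any 1 array but TNFαDes-/- replicate 2 and Des-/- replicate 1 was left out (limma adjusted p up to 0.0698). Against Des-/- replicate 1 alone the change of Gpx3 was 0.35, with a single Des-/- array.

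Gpx1, the glutathione peroxidase of cytosol and mitochondria, read 11.52, 11.54 and 11.60 in TNFαDes-/- hearts, against 11.40, 11.02 and 10.88 in Des-/- hearts. Des-/- replicate 1 lay 0.13 below the lowest TNFαDes-/- array. The change of 0.45 ± 0.14 (SE) passed narrowly over all genes (limma adjusted p = 0.0471) and missed over all probe sets (adjusted p = 0.062). After quantile normalization it was 0.10 (limma adjusted p = 0.406), with overlapping values of 11.33, 11.40 and 11.40 in TNFαDes-/- and 11.21, 11.34 and 11.27 in Des-/- hearts. Of the 6 single arrays, leaving out any but Des-/- replicate 1 ended the call (adjusted p up to 0.166).

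The 5 probe sets shared by Prdx1 and Gm21399 gave log2 changes of 0.03 to 0.63. Peroxiredoxin 1 is an abundant thiol peroxidase of the cytosol. The brightest of them, 1434731_x_at, read 12.61, 12.52 and 12.61 in TNFαDes-/- hearts, against 12.60, 11.90 and 11.81 in Des-/- hearts, so Des-/- replicate 1 stood among the TNFαDes-/- arrays. Of the 5, only 1436691_x_at had groups that did not overlap and passed (0.63 ± 0.17 SE; limma adjusted p = 0.0457 over all probe sets), and after quantile normalization it did not pass (0.26, adjusted p = 0.0689), while 1433866_x_at, at 0.03 as deposited, stood at -0.32 (adjusted p = 0.0841). Over all probe sets 9.94% were called higher.

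Gsr, which encodes glutathione reductase, had probe sets that differed in the size of their change. The main one, 1421816_at, read 7.81, 7.93 and 8.03 on the TNFαDes-/- arrays, against 7.58, 7.66 and 7.23 on the Des-/- arrays. Its change was 0.44 ± 0.13 (SE; limma adjusted p = 0.0475), or 1.35-fold, and it missed the threshold over all probe sets (adjusted p = 0.0622). The second, 1421817_at, read 8.30, 8.18 and 8.30 on the TNFαDes-/- arrays, against 7.37, 6.81 and 7.11 on the Des-/- arrays. These groups were separated by 0.81, and the change was 1.16 ± 0.14, or 2.24-fold (limma adjusted p = 0.00178 over all probe sets). Both probe sets were higher, but under quantile normalization the main one did not pass (0.30, limma adjusted p = 0.118) while the second did (1.04, limma adjusted p = 0.00104). The second passed under all 16 alternatives run on it, at 0.89 to 1.31, and became the brighter of the pair without Des-/- replicate 1 (1.30) or Des-/- replicate 2 (1.02). Leaving out any 1 of the other 4 arrays ended the call of the main one (adjusted p up to 0.163).

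**Figure D2:**
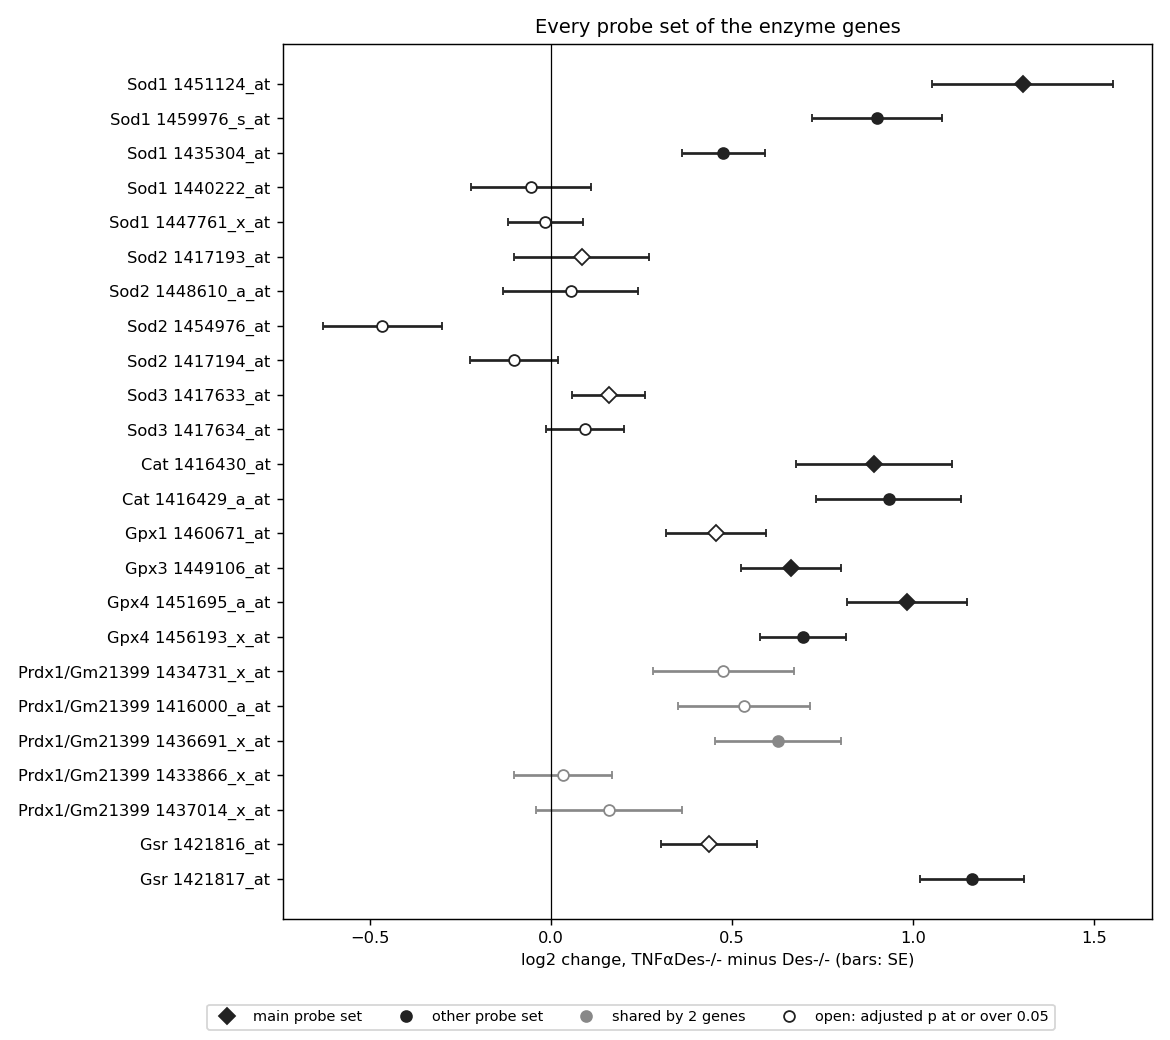
Log2 change (TNFαDes-/- minus Des-/-) with its SE for all 24 probe sets of the members, tested over all 45037 probe sets. Diamonds are main probe sets, grey symbols are the 5 shared by Prdx1 and Gm21399, and open symbols did not pass; of the 19 others 9 were higher, 0 were lower, and the main probe sets of Gpx1 and Gsr missed this wider adjustment.

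Over all probe sets, 9 of the 19 that belong to 1 member were higher and 0 were lower as deposited, where 14.9% of all probe sets were called, 9.94% higher and 4.93% lower (limma; 1 of the 19, 1454976_at of Sod2, was lower at an unadjusted p under 0.05). After quantile normalization 6 of the 19 were higher and 2 lower, and with cyclic loess 5 were higher and 3 lower, the lower ones all of Sod2. Over all genes 12.0% were higher and 10.4% lower after quantile normalization. With cyclic loess 11.8% of all genes were higher, and 1995 of the 18193 were lower. Shares over all probe sets under these scalings are not given here. The 9 higher as deposited belong to Sod1 (3), Cat (2), Gpx4 (2), Gpx3 (1) and Gsr (1), and probe sets of 1 gene share its transcripts.

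**Figure D3:**
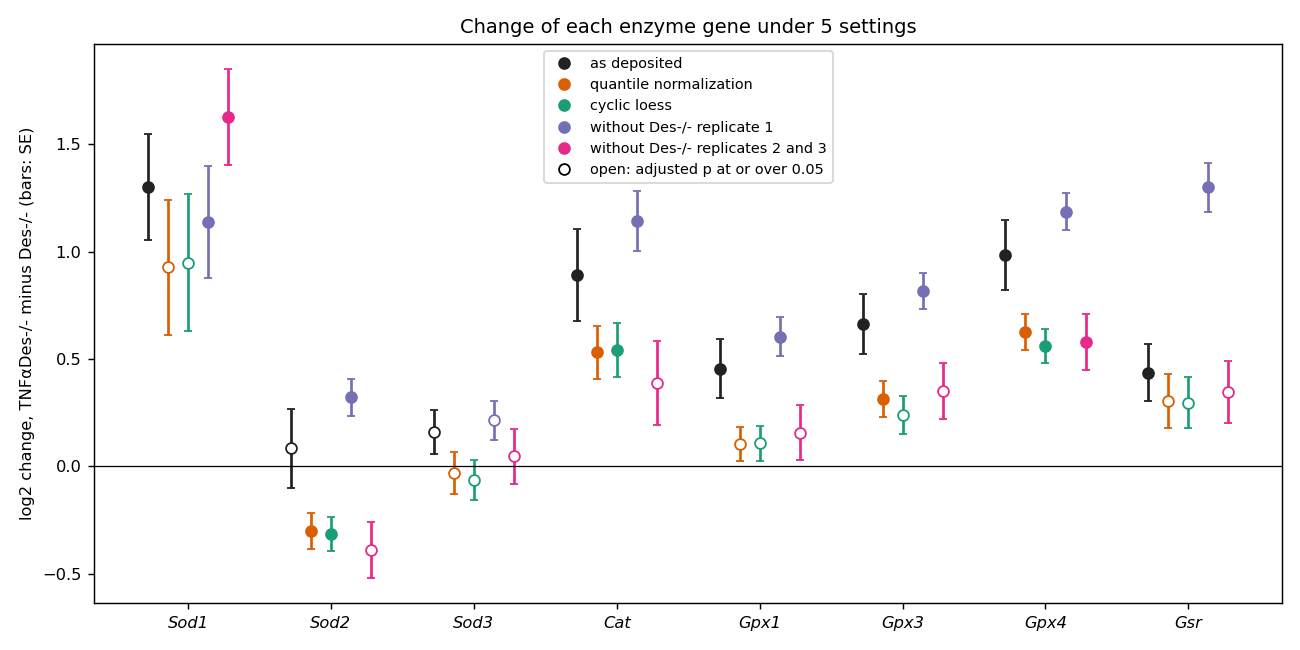
Log2 change (TNFαDes-/- minus Des-/-) and SE of the 8 genes as deposited, after quantile normalization, with cyclic loess, without Des-/- replicate 1 and without Des-/- replicates 2 and 3. Open symbols did not pass; Gpx4 passed in all 5, Sod2 changed sign, and the Gsr value without Des-/- replicate 1 comes from its second probe set.

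Each of the other 7 genes was also set against Sod2 on the same array, a choice made after the values were seen. Sod2 had the smallest change of the members as deposited, so all 7 differences of means were bound to be positive and their sign tests nothing. Any change of Sod2 itself enters each difference, and the p-values below do not allow for this choice. The subtraction removes a shift only where both probe sets share it, and the arrays differed at high signal and not at the median (5.02 to 5.08 on all 6). Only the change of such a difference is read, since levels of different probe sets are not comparable. Gpx4 minus Sod2 was 0.93, 0.98 and 0.87 on the TNFαDes-/- arrays, against -0.04, 0.02 and 0.10 on the Des-/- arrays. Here Des-/- replicate 1 lay with the other 2 arrays of its group, and the SD was 0.06 in TNFαDes-/- and 0.07 in Des-/- hearts. Cat minus Sod2 was -0.44, -0.81 and -0.64 on the TNFαDes-/- arrays, against -1.41, -1.49 and -1.41 on the Des-/- arrays. Sod1 minus Sod2 was -0.45, 0.03 and -0.57 on the TNFαDes-/- arrays, against -2.34, -0.74 and -1.55 on the Des-/- arrays. The differences of the means were 0.90 for Gpx4, 0.81 for Cat, 1.22 for Sod1, 0.58 for Gpx3 and 0.37 for Gpx1, with groups that did not overlap, an exact two-sided permutation p = 0.1 each, the smallest that 3 against 3 arrays can give, and 0.14 adjusted over the 7 comparisons. The subtraction widened other genes: the SD over Des-/- arrays was 0.80 for Sod1, 0.38 for Gsr and 0.33 for Sod3, against 0.51, 0.23 and 0.13 for their own signal. For the dimmer Gsr (0.35, exact permutation p = 0.2) and Sod3 (0.07, exact permutation p = 0.9) the groups overlapped, and nothing is read from this.

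**Figure D4:**
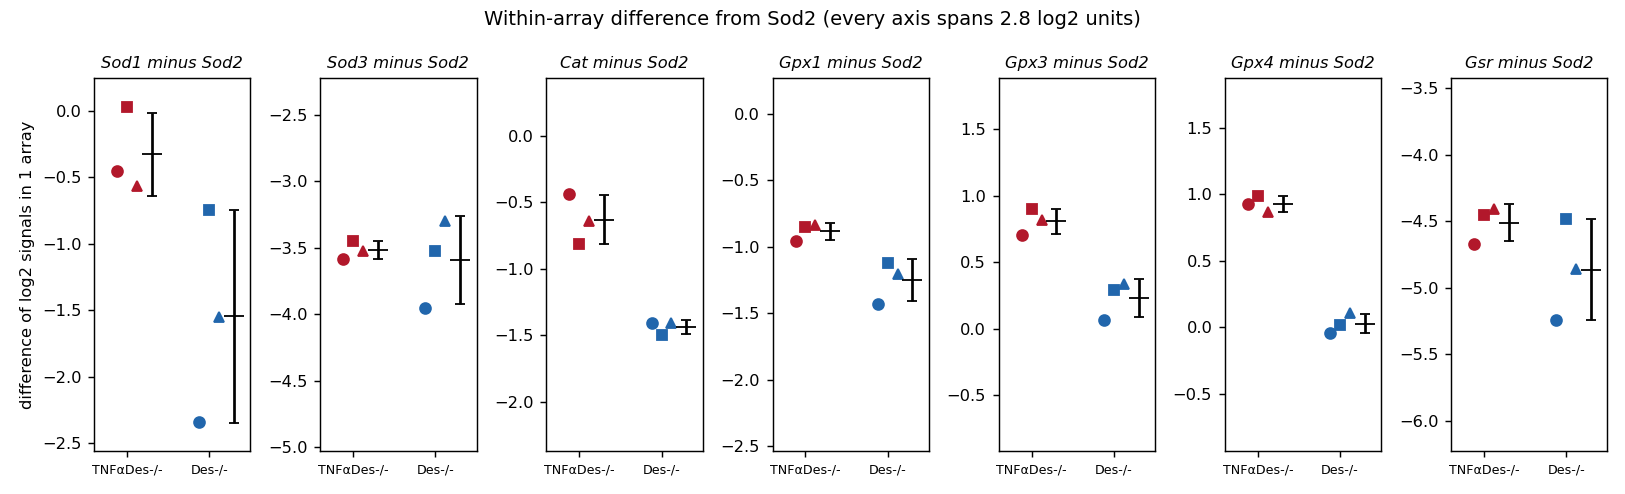
Difference between the log2 signal of each gene and that of Sod2 on the same array, for the 3 TNFαDes-/- arrays (left in each panel) and the 3 Des-/- arrays (right), with mean and SD. Circle, square and triangle are replicates 1, 2 and 3; the groups overlap for Sod3 and Gsr and not for the other 5.

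The genes with the nearest profiles were sought for the members with the largest and the smallest change, as the root mean square difference over the 6 arrays after each gene's mean was subtracted. For Sod1 they were Lrrc8a (0.23), Alpk3 (0.23) and Zfp593 (0.24), where the median gene differed by 0.72. Lrrc8a encodes a subunit of the volume-regulated anion channel and Alpk3 a kinase of heart muscle. For Sod2 they were Mylk3 (0.02), R3hdm2 (0.03) and Ckmt2 (0.03), against 0.29 for the median gene. The nearest genes are closer than the median gene by choice. Of the Des-/- arrays replicate 1 was the highest for Sod2, as was its 99th percentile of signal (12.27, against 11.75 and 11.69). The part of this scaling in the match was not tested. Mylk3 is the cardiac myosin light chain kinase and Ckmt2 the mitochondrial creatine kinase of muscle.

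The wider thiol system, which reduces and supports these enzymes, held larger single changes than the 8 members did. Of 28 measured genes of other peroxidases and of the thioredoxin and glutathione systems, 14 rose and 2 fell (limma; median log2 change 0.32), against 15.2% higher and 6.05% lower over all genes. With quantile normalization 11 rose and 3 fell, against 12.0% and 10.4%. The lists were chosen with results known, so these shares describe them and test nothing. Txnrd1, the cytosolic thioredoxin reductase, changed by 2.68 ± 0.10 (SE), Srxn1, which repairs overoxidised peroxiredoxins, by 2.34 ± 0.11, and Gclm, a subunit of the enzyme that starts glutathione synthesis, by 1.76 ± 0.14. Gclm read 10.38, 10.43 and 10.38 in TNFαDes-/- hearts, against 8.97, 8.48 and 8.47 in Des-/- hearts, and all 3 genes passed under each alternative run on them, although as the mean of all its probe sets the change of Txnrd1 was 0.96. The methionine sulfoxide reductases Msra (-0.41 ± 0.09) and Msrb2 (-0.38 ± 0.12) fell, and the Msrb2 call ended whichever array was left out (adjusted p up to 0.117). The call of Msra ended without TNFαDes-/- replicate 1, Des-/- replicate 2 or Des-/- replicate 3 (adjusted p up to 0.0802). Among the other peroxiredoxins, Prdx4 of the endoplasmic reticulum rose by 0.82 ± 0.17, and it lost its call without TNFαDes-/- replicate 3 (adjusted p = 0.0504), in a test against a 1.2-fold change (limma treat, adjusted p = 0.0624), against Des-/- replicate 1 alone (0.41, adjusted p = 0.119) and as the mean of all its probe sets (0.31, adjusted p = 0.129). The erythroid-rich Prdx2 and the mitochondrial Prdx3 stood at 0.20 and 0.27 and did not pass, and at -0.17 and -0.10 after quantile normalization. These 3 peroxiredoxins, and Nox4 and Rac2 below, were chosen after their values were seen.

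Glutathione peroxidases 1, 3 and 4 are selenoproteins. Of 16 measured genes of other selenoproteins and of selenium transport and insertion, 9 rose and 0 fell (limma; median 0.43; 0 fell at an unadjusted p under 0.05), where 15.2% of all genes rose and 6.05% fell. With quantile normalization 6 rose and 0 fell, where 12.0% of all genes rose. Selenow, a small selenoprotein abundant in muscle, read 11.84, 11.76 and 11.92 in TNFαDes-/- hearts, against 10.92, 10.86 and 10.73 in Des-/- hearts, with means of 11.84 ± 0.08 in TNFαDes-/- and 10.84 ± 0.10 in Des-/- hearts (SD, n = 3 each; limma adjusted p = 0.000413). Selenos, which takes part in the removal of misfolded proteins from the endoplasmic reticulum, rose by 0.95 ± 0.15 and Selenom, another selenoprotein of that compartment, by 0.89 ± 0.14.

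Among the sources of superoxide and peroxide the monoamine oxidases changed in opposite directions. Of 14 measured genes, 1 rose and 4 fell (limma; median -0.15), with 15.2% and 6.05% over all genes. With quantile normalization 1 rose and 5 fell, with 12.0% and 10.4% over all genes. Maoa, a monoamine oxidase of the outer mitochondrial membrane that releases hydrogen peroxide, read 9.57, 9.23 and 9.61 in TNFαDes-/- hearts, against 6.48, 6.42 and 6.23 in Des-/- hearts (change 3.09 ± 0.13 SE). Its relative Maob read 8.62, 8.18 and 8.55 in TNFαDes-/- hearts, against 9.71, 9.41 and 9.33 in Des-/- hearts, a change of -1.03 ± 0.15. Cybb, the catalytic subunit of the phagocyte NADPH oxidase, read 7.50, 7.16 and 7.43 in TNFαDes-/- hearts, against 8.49, 8.31 and 8.32 in Des-/- hearts, a change of -1.01 ± 0.12. The groups did not overlap in any of the 3. The remaining falls were of Nox4 (-0.98 ± 0.22), an oxidase that makes hydrogen peroxide, and Rac2 (-0.89 ± 0.11), a small GTPase of blood cells that activates the phagocyte oxidase. The call of Nox4 ended without TNFαDes-/- replicate 1 (limma adjusted p = 0.0549). Nox4 was dim, at 4.72, 4.22 and 5.03 in TNFαDes-/- against 5.96, 5.64 and 5.31 in Des-/- hearts, where the array medians were 5.02 to 5.08. Signal above background is therefore not shown for it in TNFαDes-/- hearts.

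Catalase is imported into peroxisomes. Of 14 measured genes of peroxisome assembly and import 2 rose and 1 fell (limma; median -0.18), which is near the 15.2% and 6.05% of all genes. With quantile normalization these counts were 2 and 5, beside 12.0% and 10.4%. The rises were of the assembly factor Pex3 (0.63 ± 0.14 SE) and the import docking protein Pex13 (0.60 ± 0.12), and the fall was of Pex10 (-0.45 ± 0.10), a ubiquitin ligase of the import machinery. The calls of Pex3 (adjusted p up to 0.0657) and Pex10 (up to 0.0716) were lost when some single arrays were left out, while that of Pex13 was kept whichever array was left out.

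Glutathione reductase draws on NADPH. Of 11 measured genes of NADPH supply, 3 rose and 0 fell (limma; median 0.27; 0 fell at an unadjusted p under 0.05), beside 15.2% and 6.05% of all genes. With quantile normalization these counts were 3 and 3, beside 12.0% and 10.4%. Pgd, of the pentose phosphate pathway, rose by 1.85 ± 0.12 (SE), with 10.38, 10.33 and 10.50 in TNFαDes-/- against 8.74, 8.51 and 8.39 in Des-/- hearts. Taldo1, of the same pathway, rose by 1.61 ± 0.11 and Nadk2, the mitochondrial NAD kinase, by 0.61 ± 0.11.

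**Figure D5:**
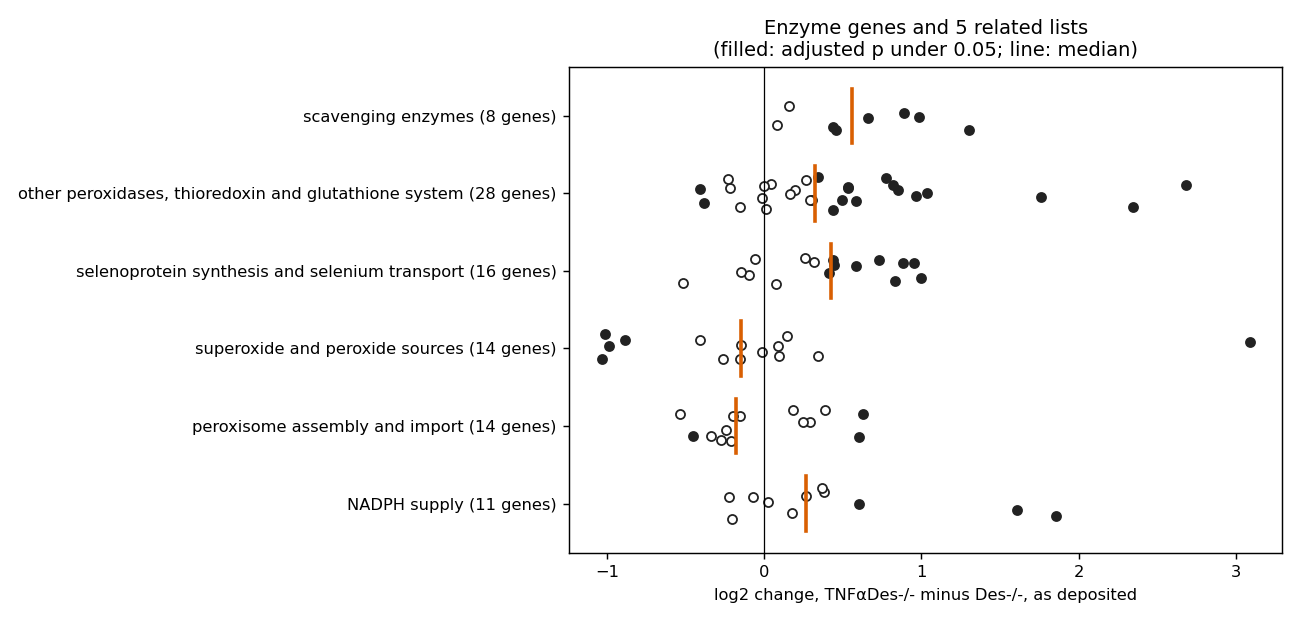
Log2 change (TNFαDes-/- minus Des-/-, as deposited) of the 8 scavenging enzyme genes and of the measured genes of 5 related lists, 1 point per gene, spread vertically to avoid overlap. Filled points passed and the line is the median of the list, which runs from -0.18 for peroxisome genes to 0.56 for the scavenging enzymes.

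The tissue and the groups were checked with marker genes, whose list level is the log2 of the mean linear signal on an array. All 10 heart muscle markers lay above the median of each array, and 0 of them passed (limma; at an unadjusted p under 0.05, 4 were higher and 1 lower). Their level was 14.26 to 14.29 on the TNFαDes-/- arrays and 13.72 to 14.41 on the Des-/- arrays, and the log2 changes of Myl2 and Mb were 0.44 and 0.49. Some markers of other cell types did differ between the groups, where 15.2% of all genes were higher and 6.05% lower. Of the 3639 brightest genes 31.2% were higher. Whether cell types had a part in the enzyme changes was not tested. Of 10 macrophage markers 6 were higher and 2 lower, with a level of 10.18 to 10.22 in TNFαDes-/- and 9.75 to 10.16 in Des-/- hearts (log2 change 0.71 for Csf1r and 0.25 for Lyz2). The 2 that were lower had larger changes than these, -3.93 for Gpnmb and -1.48 for Cd68. Fibroblast markers were higher in 2 of 8 cases, with a level of 11.78 to 11.81 in TNFαDes-/- and 11.13 to 11.74 in Des-/- hearts (0.93 for Dcn and -0.22 for Col3a1). Smooth muscle and pericyte markers had 1 rise (1.89 for Acta2) and 1 fall (-0.85 for Myh11) among 6, and Rgs5 stood at -0.02. Their level was 11.22 to 11.31 in TNFαDes-/- and 10.26 to 10.84 in Des-/- hearts, but such a level weighs bright genes like Acta2 most. Endothelial markers were lower in 4 of 8 cases, with a level of 8.54 to 8.62 in TNFαDes-/- and 8.74 to 9.08 in Des-/- hearts (0.07 for Esam and -0.17 for Cdh5, neither of which passed). The 4 were Egfl7 (-0.65), Tie1 (-0.57), Tek (-0.49) and Pecam1 (-0.42). Adipocyte markers were lower in 4 of 6 cases, with a level of 10.38 to 10.49 in TNFαDes-/- and 10.43 to 10.98 in Des-/- hearts (-0.11 for Fabp4), and Ucp1 averaged 7.59 in TNFαDes-/- and 8.89 in Des-/- hearts. Neutrophil markers were higher in 2 of 6 cases, with a level of 4.79 to 4.86 in TNFαDes-/- and 4.49 to 4.73 in Des-/- hearts (0.00 for Csf3r and 0.04 for Elane, neither of which passed). The 2 were S100a8 (0.86) and S100a9 (0.54), and 3 of the 6 lay below the median of every array. Red blood cells are rich in catalase, Gpx1 and Prdx2. Of their 4 measured markers 3 lay below the median of every array, among them Epb42 (-0.11). The level was 4.79 to 4.97 in TNFαDes-/- and 5.89 to 6.50 in Des-/- hearts, a difference that rests on the fourth marker, Alas2. Alas2, the haem synthesis enzyme of erythroid cells, averaged 6.08 ± 0.13 in TNFαDes-/- and 7.83 ± 0.40 in Des-/- hearts (SD, n = 3 each), and was lower. Gpnmb, Cd68, Myh11 and the endothelial and neutrophil markers that passed are named after their values were seen.

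RNA quality measures moved with the groups too, and their part in these results was not tested. The log2 ratio of the 3′ to the 5′ control probe set was 0.32 ± 0.04 for Gapdh in TNFαDes-/- and -0.01 ± 0.03 in Des-/- hearts, and for Actb 0.73 ± 0.10 in TNFαDes-/- and 0.48 ± 0.08 in Des-/- hearts (SD, n = 3 each). The engineered genes do not check the labels. Tnf did not pass (0.07 ± 0.12 SE; limma adjusted p = 0.746), while the brighter probe set of Des was higher (0.39 ± 0.10 SE; limma adjusted p = 0.0219). It read 8.75, 8.88 and 8.73 in TNFαDes-/- hearts, against 8.42, 8.43 and 8.33 in Des-/- hearts, and is among the 3639 brightest genes although both groups lack desmin. The other Des probe set, at -0.40, did not pass (adjusted p = 0.0829 over all probe sets). The sources used here do not say where these probes lie relative to the transgene and the deletion.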

How the data were processed

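Heart RNA of 3 TNFαDes-/- and 3 Des-/- samples was measured on 6 arrays, with groups and replicate numbers as in the titles. The authors deposited log2 values for 45101 probe sets, of which 64 are controls, made with RMA, per the submitters' processing notes (no version named). The sources used here do not say whether its quantile step was run. The number of arrays limits the precision. Of the 45037 probe sets without controls, 34945 have 1 gene symbol in the platform annotation, 932 several and 9160 none; the RefSeq table matched 34754 of those with 1 symbol and changed 0 symbols.

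Each of 18193 genes was represented by its brightest probe set, with no filter. The comparison used lmFit and eBayes of limma 3.58.1 (R 4.3.3), with Benjamini-Hochberg adjusted p-values over all genes and a threshold of 0.05; a second fit covered all probe sets. Changes are TNFαDes-/- minus Des-/-. The fit was run on simulated data with independent noise for each gene and no shift between arrays. That run therefore cannot show how the fit behaves on arrays that differ in distribution, as these do. The members and the lists were chosen with earlier results of these data known. Named were all members, the 3 largest rises and 2 largest falls of each list among genes past the test, the 3 nearest profiles of a pair of members, Tnf, Des and the 2 brightest markers of each cell type. Lists held 162 entries, of which 141 were measured. Alternatives covered scaling, model, filter, probe sets and left-out arrays; the same settings on the fit over all probe sets and on named list genes, and the within-array differences, were added after seeing the data.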

Additional observations from a re-analysis of the deposited data

How the results depend on the processing

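Many counts depended on how the arrays were scaled and on which array was left out; leaving out arrays also leaves fewer samples, without Des-/- replicates 2 and 3 a single Des-/- array is assumed to vary like the TNFαDes-/- arrays, treat tests against a larger change, and otherwise the cause was not tested. As deposited 6 of 8 enzyme genes were higher and 0 lower, where 15.2% of all genes were higher. After quantile normalization 3 were higher and 1 lower (12.0% of all genes higher), and with cyclic loess 2 and 1 (11.8%). With treat at 1.2-fold 2 were higher (4.92% of all genes). With quantile normalization without Des-/- replicate 1, 3 were higher (13% of all genes). With 1 array left out 2 to 7 were higher, where 7.98% to 23.5% of all genes were. These were 2 without TNFαDes-/- replicate 3 (7.98%), and 3 without TNFαDes-/- replicate 1 (8.23%) or Des-/- replicate 3 (8.64%). Without Des-/- replicates 2 and 3 the median change of the 8 was 0.35. Sod2 turned from 0.08 to -0.30 with quantile normalization, -0.31 with cyclic loess, -0.11 as the mean of its probe sets, -0.39 without Des-/- replicates 2 and 3 and -0.25 with quantile normalization without Des-/- replicate 1, and lay at -0.047 to 0.32 with 1 array left out. Sod3 turned from 0.16 to -0.031, -0.064 and -0.079 with quantile normalization, cyclic loess and quantile normalization without Des-/- replicate 1. Prdx2 turned from 0.20 to -0.17, -0.18, -0.11 and -0.21 with quantile normalization, cyclic loess, without Des-/- replicates 2 and 3 and with quantile normalization without Des-/- replicate 1, and Prdx3 from 0.27 to -0.10, -0.076 and -0.16 in the first, second and last of these. The other 6 enzyme genes kept their sign. Of the 19 own probe sets 9 were higher and 0 lower as deposited. These counts were 6 and 2 with quantile normalization and 5 and 3 with cyclic loess. They were 5 and 1 with quantile normalization without Des-/- replicate 1. With treat 3 passed, and with 1 array left out 4 to 12 did. As deposited 9.94% of all probe sets were higher and 4.93% lower, and these shares are not given for the other settings.

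In the lists, genes called in either direction numbered as follows. Of all genes 15.2% were called higher as deposited, 12.0% with quantile normalization, 11.8% with cyclic loess and 30.2% with array weights. That share was 13.5% as the mean of probe sets, 4.92% with treat and 13% with quantile normalization without Des-/- replicate 1. With 1 array left out it was 7.98% to 23.5%. NADPH supply had 3, but 6 with quantile normalization, 6 with cyclic loess, 7 with array weights, 5 as the mean of probe sets, 8 with quantile normalization without Des-/- replicate 1 and 3 to 7 with 1 array left out. Peroxisome genes had 3, but 7, 7 and 9 with quantile normalization, cyclic loess and array weights, 0 with treat, 9 with quantile normalization without Des-/- replicate 1 and 1 to 7 with 1 array left out. The thiol list had 16, 6 with treat, 6 without Des-/- replicates 2 and 3 and 8 to 20 with 1 array left out, the selenoprotein list 9, 4, 4 and 5 to 10, and the source list 5, or 8 with array weights.

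Replicate numbers are shared by the groups. Same-numbered arrays did not all deviate together (correlations of deviations 0.25, 0.31 and -0.30), and some differently numbered ones did (0.33 and 0.38). No pairing is therefore assumed, and whether one exists was not tested. In the fit over all probe sets a replicate block lowered some SEs (0.25 to 0.13 for 1451124_at of Sod1) and raised others (0.13 to 0.14 for 1421816_at of Gsr). With this block 6 enzyme genes were higher and 0 lower, as without it. A filter on dim probe sets, an intensity trend, robust hyperparameters and median centring moved none of these counts by over 1.5 times. Over all genes 2768 were higher and 1101 lower as deposited, 2189 and 1896 with quantile normalization, 2145 and 1995 with cyclic loess, 5501 and 2913 with array weights, 896 and 326 with treat, 883 and 704 without Des-/- replicates 2 and 3, 2357 and 2462 with quantile normalization without Des-/- replicate 1, and 1452 to 4271 and 560 to 1555 with 1 array left out. Leaving out probe sets named _a_at, _s_at or _x_at gave no value for Gpx4.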
